A study of Homo sapiens with 12 samples.

Results

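The genes described here are 9 apolipoprotein genes of liver lipoproteins and MTTP, which encodes the large subunit of the microsomal triglyceride transfer protein. They were chosen by name, as the table's entries for APOA1, APOA2, APOA4, APOB, APOC1, APOC3, APOE, APOH, APOM and MTTP. All 10 were found among 26485 genes, and all 10 were among the 15289 genes with enough counts to be tested. RNA was sequenced from HepG2, an established human hepatoma line that secretes many liver plasma proteins, in 12 libraries. The control line, Empty, is labelled wild type and received a CRISPR construct without a guide. Lines Z2, Z5 and Z9 are labelled as depleted of ZHX3, a zinc-finger and homeobox transcription factor, and received constructs with the guides sgZHX3-2, sgZHX3-5 and sgZHX3-9. All 4 lines were transfected with lipofectamine and selected with blasticidin from 48 h on, so the control shares both treatments. Whether a line is a clone or a pool is not given in the sources used here. Each line supplied 3 wells, named a to c (n = 3 per line in every value below), so a p-value measures the spread between wells. With 1 control line, an effect of the constructs and the history of the Empty line cannot be told apart.

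Apolipoproteins coat the lipid particles that the liver and the intestine release into plasma. ApoB is the structural protein of very low density lipoprotein, and the transfer protein encoded by MTTP loads lipid onto it in the endoplasmic reticulum while it is being made. ApoA-I and apoA-II are the main proteins of high density lipoprotein (HDL), apoE is a ligand of the LDL receptor family, and the C apolipoproteins move between particles and alter lipolysis and uptake. In human adults apoA-IV comes mainly from the intestine, and the genes APOA1, APOC3 and APOA4 lie next to each other on chromosome 11, as APOE and APOC1 do on chromosome 19.

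APOA4, APOH and MTTP passed the test in the same direction in each labelled line, so the sequence before their start sites is shown first. RefSeq promoter windows of build GRCh38.p14 (250 bases before to 50 after a start site, 10 windows) were matched for 7 of the 10 genes. Sequences run 5′ to 3′ on the gene's strand, and except in the MTTP half-site stretch only bases outside annotated exons are printed. The half-site stretch lies past the first annotated exon base of its window and was not checked for exons. Capitals mark matches, on either strand, to the letters searched. These were the nuclear receptor half-site AGGTCA, the HNF4A-like CAAAGTCCA, the FOXA-like TGTTTAC, the TATA box TATAAA and the CCAAT box CCAAT.
APOA4, chr11:116823307-116823554, minus strand: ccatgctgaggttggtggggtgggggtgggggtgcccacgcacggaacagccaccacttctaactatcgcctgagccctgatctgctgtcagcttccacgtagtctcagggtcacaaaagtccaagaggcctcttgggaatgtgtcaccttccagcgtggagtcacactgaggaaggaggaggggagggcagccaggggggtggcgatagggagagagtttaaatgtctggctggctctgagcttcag
APOH, chr17:66229423-66229665, minus strand: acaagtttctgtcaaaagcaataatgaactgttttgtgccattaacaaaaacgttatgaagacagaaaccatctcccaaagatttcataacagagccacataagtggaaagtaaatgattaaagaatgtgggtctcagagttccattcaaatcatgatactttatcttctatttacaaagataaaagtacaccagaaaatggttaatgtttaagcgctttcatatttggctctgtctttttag
MTTP, chr4:99574574-99574706, plus strand: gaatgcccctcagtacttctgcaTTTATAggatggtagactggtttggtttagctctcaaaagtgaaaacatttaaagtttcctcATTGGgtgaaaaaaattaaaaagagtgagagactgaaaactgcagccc
MTTP half-site, chr4:99574768-99574795, plus strand: ggagtcTGACCTttccccaaagataaac
In MTTP the reverse complement of AGGTCA begins at position -50 from the second of its annotated starts, and those of TATAAA and CCAAT begin at -227 and -165. These matches do not overlap. Over the whole windows of APOA4 and APOH no match to the 5 motifs was found, which says only that these exact letters are not there. Among the other members, APOA2 held the FOXA-like motif from -42, and separate APOE windows held the CCAAT box from -27 and -202, all as reverse complements. Of 35116 windows in the table, 13.8% hold AGGTCA, 0.384% CAAAGTCCA, 3.42% TGTTTAC, 11.5% TATAAA and 34.6% CCAAT. A match is a description of letters, not of a bound site.

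Total counts ran from 50864744 to 65428204 per library. ZHX3 itself, the gene the guides are named for, was at 33.0 ± 0.420 CPM (counts relative to the scaled library size, SD) in Empty. Z2, Z5 and Z9 had 34.5 ± 0.620, 32.9 ± 0.505 and 34.3 ± 0.713 CPM of it, so its mRNA level does not set the labelled lines apart. All 8 hepatocyte and hepatoma markers were tested, and their summed level was 47450 to 48670 CPM in the Empty wells. In Z2 it was 44050 to 47960 CPM, in Z5 45740 to 46000 and in Z9 43350 to 44050. Of these 8, SERPINA1, FGA and FGB were higher in the mean of the labelled lines than in Empty (log2 fold change 0.28, 0.46 and 0.26, edgeR adjusted p = 0.0042, 1.47e-05 and 0.000382). ALB and GPC3 were lower (-0.59 and -0.18, 3.12e-07 and 0.0143), and AFP, TTR and TF were not called. Of 6 enterocyte markers, CDX2, CDX1, SI and LCT had at most 7, 3, 2 and 5 counts in any library. FABP2, at 1.77 to 3.84 CPM, was higher (0.46, edgeR adjusted p = 0.0333), and VIL1, at 292 to 371 CPM, was lower (-0.21, 0.000899). Sums of that list, nearly all VIL1, were 349 to 373 CPM in Empty and 295 to 331 CPM in the other wells. Among 5 stromal markers, DCN was at 0 in all libraries, COL3A1 and LRAT had at most 14 and 6 counts, PDGFRB was at 21.1 to 32.5 CPM and not called, and COL1A1, at 0.240 to 1.08 CPM, was lower (-0.70, edgeR adjusted p = 0.042). For 4 macrophage and leukocyte markers, MARCO was at 0, PTPRC and CD163 had at most 2 and 3 counts, and CD14, at 0.682 to 1.75 CPM, was not called. The 3 endothelial markers summed to 6.20 to 6.40 CPM in Empty and 6.64 to 8.57 CPM in the other wells; CDH5 was higher (1.67, edgeR adjusted p = 0.000176), and PECAM1 and VWF were not called. The part of these markers in the results below was not tested. Well Z2 b stood apart from its line: a chi-square per degree of freedom, which is near 1 where only sampling differs, was 43 against Z2 a and 30.2 against Z2 c, and 6.01 to 19.5 for the other pairs of wells within lines.

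HepG2 expressed the 10 genes over a wide range. APOB ranked 8th among all tested genes by mean CPM, APOA2 31st, APOA1 43rd, APOE 44th and APOH 55th, while APOA4 ranked 10176th. Levels of different genes can be set side by side only per length, here as CPM per kilobase of the transcript chosen from GENCODE release 29. On that scale Empty held 4538 ± 192 of APOA2, 1375 ± 93.4 of APOH, 1322 ± 60.7 of APOE, 1306 ± 12.6 of APOA1 and 600 ± 6.28 of APOB (CPM per kilobase, SD). APOC1 followed with 263 ± 14.6, APOC3 with 130 ± 11, APOM with 99.1 ± 10.2, MTTP with 24.6 ± 0.824 and APOA4 with 6.59 ± 0.229. APOH, APOE and APOA1 are neighbours whose wells overlapped in Empty, and on this scale they were the only genes whose place changed between lines: APOH was 2nd of the 10 in Empty and 4th in Z2, Z5 and Z9. The order depends in part on the length used: per kilobase of all annotated exons joined, Empty held 2276 of APOA2, 1214 of APOH, 1125 of APOA1, 729 of APOE and 571 of APOB, so that APOE came after APOA1, and the 5 lower genes kept their order. Together the 10 genes held 1.59% ± 0.025 of all counts in Empty, against 1.53% ± 0.042, 1.58% ± 0.0091 and 1.48% ± 0.034 in Z2, Z5 and Z9. APOB, a very long transcript, took 53.2% of that share in Empty and 49.0%, 49.4% and 48.4% in Z2, Z5 and Z9.

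**Figure D1:**
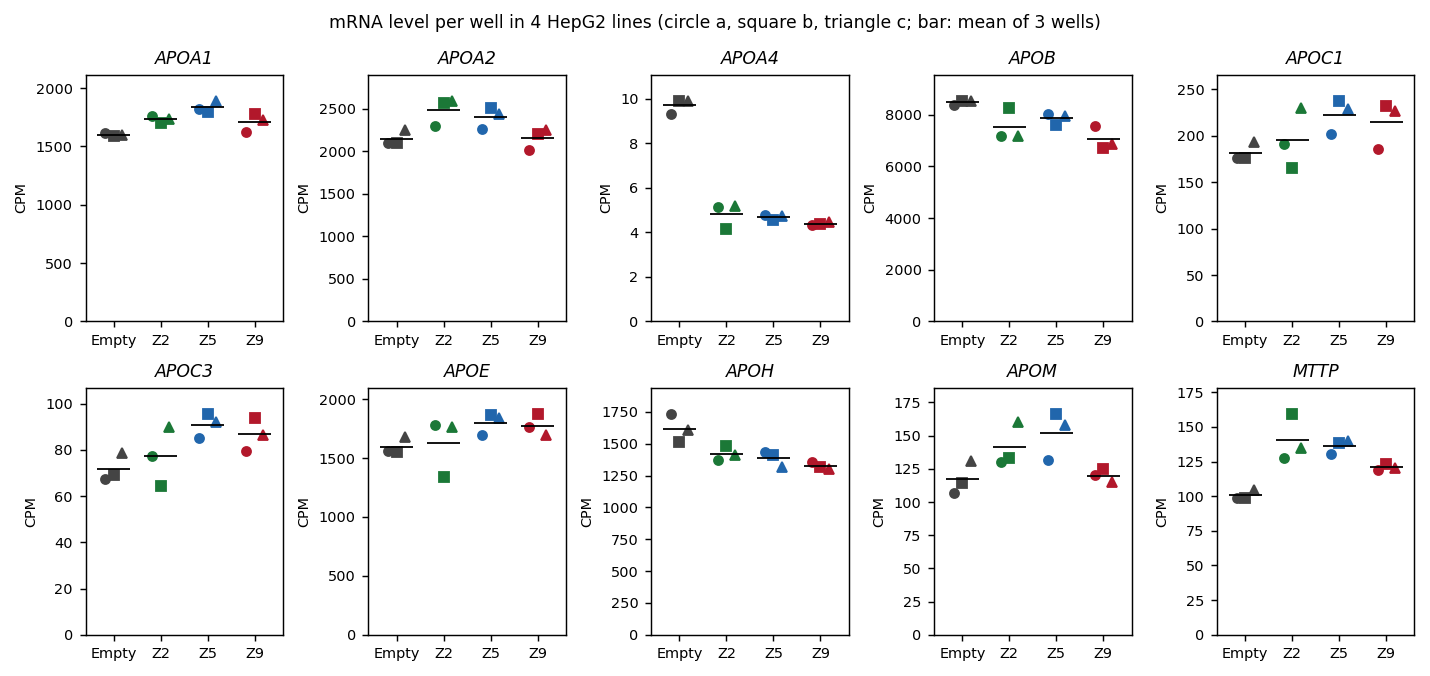
Level of each of the 10 genes in CPM on scaled library sizes (vertical axes, starting at 0) in the 3 wells of each line; the bar is the mean of 3 wells. The 9 labelled wells of APOA4 (4.15 to 5.17) lie below the Empty wells (9.32 to 9.91), and those of MTTP (119 to 159) lie above them (98.3 to 105).

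Against Empty, the mean of the 3 labelled lines was higher for APOA1 and MTTP and lower for APOA4, APOB and APOH (edgeR quasi-likelihood test, adjusted p under 0.05 over all tested genes). The 5 others did not pass. Over all tested genes 13% were called higher and 12.6% lower, and among the 3294 genes at 64 CPM or more 29.4% were called in either direction; 4 of the 9 members at that level were called. The median log2 fold change of the 10 genes was 0.13, against 0.0029 for all tested genes, and 7 of the 10 values were above 0. All 9 labelled wells lay above the 3 Empty wells for APOA1 and MTTP, as they did for 8.83% of all tested genes. They lay below the Empty wells for APOA4, APOB and APOH, as for 8.31% of genes. Without Empty a or without Empty b, 3 of the 10 genes were called, which were APOA4, APOH and MTTP.

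Taken line by line, Z2 had 2 of the 10 genes higher (APOA2 and MTTP) and 2 lower (APOA4 and APOH), where 12.4% and 11.5% of all tested genes were called. Z5 had 4 higher (APOA1, APOC3, APOM and MTTP) and 2 lower (APOA4 and APOH), with 8.27% and 6.68% of all genes. Z9 had 1 higher (MTTP) and 3 lower (APOA4, APOB and APOH), with 9.66% and 9.58% of all genes. These comparisons share the 3 Empty wells, so they are not independent of each other. Without Empty a the calls in Z2 and in Z5 came down to 2 each, which were APOA4 and MTTP. They also came down to 2 in Z2 without Z2 c and in Z5 without Z5 c, and to 3 in Z5 without Empty b or Z5 b. Without Z2 b, 5 genes were called in Z2, with APOB added. The uncalled values of APOC1, APOC3 and APOE in Z2, 0.10, 0.11 and 0.029 on the log2 scale, were 0.21, 0.22 and 0.15 without that well (edgeR adjusted p = 0.219, 0.0898 and 0.0687).

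**Figure D2:**
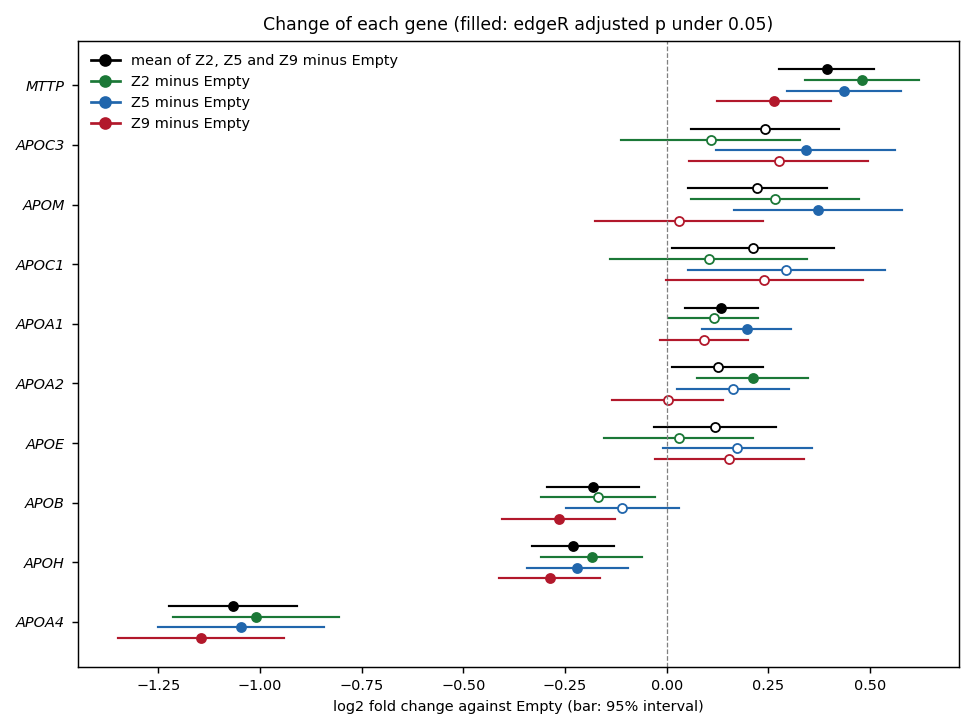
Log2 fold change against Empty (horizontal axis) of each gene in the mean of the 3 labelled lines and in each line, with 95% intervals; filled points passed the edgeR test at adjusted p under 0.05. APOA4 lies near -1 in every line, and MTTP, APOH and APOA4 are filled in every line.

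MTTP and APOB, the pair that starts apoB particle assembly, went in opposite directions. MTTP (chr4:99564130-99623997, plus strand, GRCh38.p14) was at 98.3, 99.0 and 105 CPM in the Empty wells. Its wells held 127, 159 and 135 CPM in Z2, 130, 138 and 140 in Z5, and 119, 123 and 120 in Z9. No labelled well overlapped Empty, and Z9 held the lowest labelled values. The mean of the 3 lines was 1.31-fold Empty (95% interval 1.21 to 1.42; log2 fold change 0.39 ± 0.056 SE, edgeR adjusted p = 6.09e-05). By line the log2 fold changes were 0.48, 0.44 and 0.26 for Z2, Z5 and Z9 (edgeR adjusted p = 7e-05, 0.000249 and 0.0102). The order Z2, Z5, Z9, Empty had neighbours Z2 and Z5 that did not differ beyond their spread (log2 difference -0.045, 95% interval -0.18 to 0.095). Well Z2 b lay 0.19 above its line's mean on the log2 scale, and without it the MTTP change in Z2 was 0.38 (edgeR adjusted p = 2.08e-05), below the 0.44 of Z5, so the order of these neighbours turns with that well. Leaving out single libraries moved the MTTP change of the mean between 0.36 and 0.42, all called. In bulk RNA, fewer cells with a transcript and less of it per cell cannot be told apart, here and below.

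APOB (chr2:21001429-21044073, minus strand) had 8369, 8525 and 8520 CPM in Empty. It had 7166, 8263 and 7180 CPM in Z2, 8029, 7581 and 7946 in Z5, and 7573, 6690 and 6877 in Z9. All 9 labelled wells were below Empty, Z2 b the least so. The mean of the lines fell by 0.18 on the log2 scale (SE 0.053, edgeR adjusted p = 0.019). Only in Z9 did APOB pass by line (log2 fold change -0.27, edgeR adjusted p = 0.00928), while Z2 had -0.17 (0.0725) and Z5 -0.11 (0.29), and Z9 was not called different from either. The call of the mean rested on each control well: without Empty a, b or c the edgeR adjusted p of the mean was 0.0665, 0.0748 and 0.0597, and without Z9 b that of Z9 was 0.0599. Without Z2 b the change in Z2 was -0.24 (edgeR adjusted p = 0.00543).

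Among the HDL proteins, APOA1 was higher in the mean of the lines, and APOA2 and APOM passed in 1 line each. APOA1 (chr11:116835751-116837622, minus strand), which also activates the cholesterol-esterifying enzyme LCAT, had 1618, 1587 and 1602 CPM in Empty. Its wells held 1764, 1705 and 1737 CPM in Z2, 1821, 1798 and 1890 in Z5, and 1623, 1775 and 1725 in Z9. Every labelled well lay above Empty, Z9 a by the least. The mean rose by 1.10-fold (log2 fold change 0.13 ± 0.042 SE, edgeR adjusted p = 0.0273), and by line APOA1 passed in Z5 (0.20, adjusted p = 0.0163). So small a change rested on every control well: without Empty a, b or c the edgeR adjusted p of the mean was 0.0919, 0.108 and 0.0939, and without Z5 c or Z9 b it was 0.0533 and 0.0566. In Z5 it was 0.0572, 0.0606 and 0.0904 without Empty a, Empty b and Z5 c.

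APOA2 (chr1:161222292-161223628, minus strand) had 2097, 2100 and 2256 CPM in Empty, 2302, 2575 and 2594 in Z2, 2265, 2513 and 2446 in Z5, and 2012, 2200 and 2251 in Z9. The wells of Z2 and Z5 lay above Empty, and those of Z9 overlapped it. Only Z2 passed (log2 fold change 0.21 ± 0.065 SE, edgeR adjusted p = 0.0257), and that call was lost without Empty a, Empty b or Z2 c (0.104, 0.0878 and 0.0937). The value in Z9 was 0.0019 (95% interval -0.14 to 0.14).

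APOM (chr6:31652404-31658210, plus strand) encodes the HDL protein that carries sphingosine 1-phosphate. It had 107, 115 and 131 CPM in Empty, 130, 134 and 160 in Z2, 132, 166 and 158 in Z5, and 120, 125 and 115 in Z9. The wells of Z5 were above Empty, those of Z9 lay within its range, and 1 Z2 well overlapped it. APOM rose in Z5 (log2 fold change 0.37 ± 0.096 SE, edgeR adjusted p = 0.0189), which was lost without Empty a, Empty b, Z5 b or Z5 c (0.0891, 0.0611, 0.0913 and 0.0791). In Z9 it was 0.03 (95% interval -0.18 to 0.24), and the mean of the lines was 0.22 (edgeR adjusted p = 0.0542).

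APOA4 had the largest change of the 10 genes. It lies at chr11:116820700-116823304 on the minus strand, with its printed upstream stretch directly before it. Empty had 9.32, 9.90 and 9.91 CPM, from 475, 571 and 647 counts. The labelled wells held 5.13, 4.15 and 5.17 CPM in Z2, 4.80, 4.55 and 4.75 in Z5, and 4.32, 4.39 and 4.46 in Z9, from 216 to 279 counts. The lowest Empty well was far above the highest labelled well. Over the 3 lines the level fell to 0.477-fold Empty (95% interval 0.428 to 0.532; log2 fold change -1.07 ± 0.075 SE, edgeR adjusted p = 1.83e-08). Z2, Z5 and Z9 fell by 1.01, 1.05 and 1.15 on the log2 scale (edgeR adjusted p = 1.25e-06, 9.79e-07 and 3.2e-07), and no pair of them differed beyond their spread. With any library left out the change of the mean stayed between -1.10 and -1.04 and was called. An annotated gene on the opposite strand shares 635 of the 1473 exon bases of APOA4, and the strand setting of the counting is not given in the sources used here. Of the 6 enterocyte markers given above, 4 had at most 7 counts in any library, and the 2 tested went opposite ways, FABP2 higher and VIL1 lower.

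APOC3, which lies between APOA4 and APOA1 (chr11:116829907-116833072, plus strand), encodes an inhibitor of lipoprotein lipase and of remnant uptake. Its wells held 67.4, 69.0 and 78.6 CPM in Empty, 77.6, 64.4 and 89.9 in Z2, 85.1, 95.5 and 92.0 in Z5, and 79.7, 93.9 and 86.7 in Z9. The Z5 and Z9 wells were above Empty, and Z2 b was below every Empty well. APOC3 rose in Z5 (log2 fold change 0.34 ± 0.10 SE, edgeR adjusted p = 0.038). That call was lost without Empty a, Empty b, Z2 a, Z5 b or Z5 c (0.149, 0.109, 0.0609, 0.133 and 0.114). The mean of the lines, 0.24, missed the threshold (edgeR adjusted p = 0.0501), and without Z2 b it was 0.28 (0.00676).

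Within this cluster, then, APOA4 was lower (log2 fold change -1.07), while the values of APOA1, APOC3 and APOA5 were above 0 (0.13, 0.24 and 0.091). Of the genes above 0 only APOA1 was called, and APOC3, with the larger value, narrowly missed the threshold (edgeR adjusted p = 0.0501). The APOA1 call was lost without Empty a, b or c (edgeR adjusted p = 0.0919, 0.108 and 0.0939). Neighbours were taken from a list of names, not as all genes of the stretch. Of 9 other listed genes tested, from -77.0 to 422 kb of the APOA1 start in chromosome coordinates, 1 was higher and 1 lower. ZPR1, which encodes a zinc-finger protein, rose (log2 fold change 0.18, edgeR adjusted p = 0.00649), and TAGLN, which encodes the smooth muscle protein transgelin, fell (-0.96, 0.000204). Around APOE, 15 other listed genes were tested, of which 2 were higher and 2 lower. The adhesion receptor gene BCAM (0.39, edgeR adjusted p = 8.99e-05) and TRAPPC6A, of a vesicle tethering complex (0.50, 0.0023), rose. BCL3, an NF-kB cofactor gene, fell (-0.28, 0.00143), as did the pseudogene APOC1P1 (-0.48, 0.0108), which is named with its value known and whose reads may be shared with APOC1. The APOC1P1 call was lost without Empty c (0.0936). The listed neighbours of both clusters together gave 3 higher and 3 lower of 24 tested genes, with a median of 0.017 against 0.0029 for all genes. Over all tested genes 13% were called higher and 12.6% lower.

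**Figure D3:**
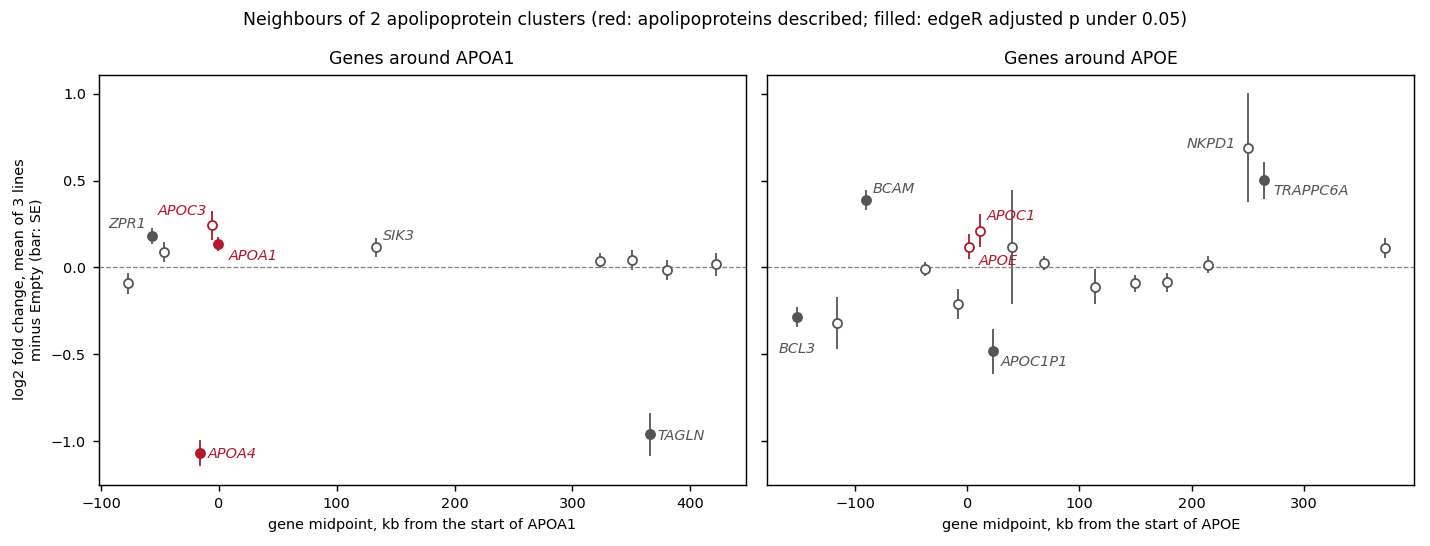
Log2 fold change of the mean of the 3 labelled lines against Empty (vertical axis, bars are SE) by distance of a gene's midpoint from the start of APOA1 (left) or APOE (right) in kb; filled points passed the edgeR test. APOA4, at -15.6 kb, lies at -1.07, while APOC3 at -6.13 kb and APOA1 lie at 0.24 and 0.13. Points are members and listed neighbours, not all genes of the stretch.

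APOE and APOC1, neighbours on chromosome 19, were not called in any comparison with Empty in the reported fit. APOE (chr19:44905796-44909393, plus strand), a ligand for clearance of remnants, had 1561, 1548 and 1681 CPM in Empty. It had 1783, 1343 and 1762 in Z2, 1694, 1864 and 1843 in Z5, and 1763, 1872 and 1694 in Z9. All labelled wells except Z2 b were above Empty, and Z2 b was below it. Their mean change was 0.12 ± 0.071 on the log2 scale (SE, 95% interval -0.032 to 0.27, edgeR adjusted p = 0.241). Without Z2 b it was 0.16 (edgeR adjusted p = 0.00912), the only alternative in which APOE was called in this comparison. By line, APOE was called without Z2 b in Z5 and Z9 (edgeR adjusted p = 0.0223 and 0.0337). It was also called there when only that line and Empty were fitted (0.0257 and 0.0352).

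APOC1 (chr19:44914325-44919346, plus strand) encodes a small apolipoprotein that inhibits the cholesteryl ester transfer protein. It had 176, 176 and 193 CPM in Empty, 191, 165 and 230 in Z2, 202, 237 and 228 in Z5, and 186, 231 and 226 in Z9. The Z5 wells were above Empty, while Z2 and Z9 overlapped it. The mean of the lines was 0.21 (95% interval 0.012 to 0.41, edgeR adjusted p = 0.112), and without Z9 a it was 0.24 (0.0436). In Z5, at 0.29 (edgeR adjusted p = 0.099), APOC1 was called when only Z5 and Empty were fitted (0.0055). The same held without Z2 c (0.0394), with the well letter as a block (0.0366) and by the DESeq2 Wald test (adjusted p = 0.0399). An annotated gene on the same strand shares 532 exon bases with APOC1, so its counts are uncertain.

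APOH (chr17:66212033-66229415, minus strand) encodes beta-2-glycoprotein I, a plasma protein that binds anionic phospholipid. Empty had 1732, 1513 and 1607 CPM. The wells held 1375, 1483 and 1413 CPM in Z2, 1434, 1416 and 1318 in Z5, and 1355, 1320 and 1300 in Z9. All labelled wells were below all Empty wells, although Z2 b came close to Empty b. Over the 3 lines APOH fell by 0.23 on the log2 scale (SE 0.048, edgeR adjusted p = 0.00183), to 0.852-fold, and was called with any library left out (-0.28 to -0.18).

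By line APOH fell by 0.18, 0.22 and 0.29 in Z2, Z5 and Z9 (edgeR adjusted p = 0.0314, 0.0187 and 0.00241). The Z2 call was lost without Empty a, Empty c, Z2 a or Z2 c (0.182, 0.0578, 0.0736 and 0.0699). The Z5 call was lost without Empty a, Z5 b or Z5 c (0.13, 0.0542 and 0.114), and the Z9 call was kept throughout. The order Empty, Z2, Z5, Z9 had no labelled neighbours that differed beyond their spread.

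Ratios of 2 genes within a library do not depend on how libraries are scaled. APOA4 counts per 1000 APOA1 counts were 5.76, 6.24 and 6.19 in Empty, with means of 2.77, 2.56 and 2.57 in Z2, Z5 and Z9, and no labelled well exceeded 2.98. MTTP counts per 1000 APOB counts were 11.8, 11.6 and 12.3 in Empty, 17.8, 19.3 and 18.8 in Z2, 16.2, 18.2 and 17.6 in Z5, and 15.7, 18.4 and 17.5 in Z9. Both ratios separated Empty from the labelled wells without overlap, in opposite directions. This follows from the wells of each of these genes, which were already apart, and is no separate result. The other pairs did not separate Empty from all labelled wells: APOC3 per 1000 APOA1 had means of 44.7 in Empty and 44.5, 49.5 and 50.8 in Z2, Z5 and Z9. APOC1 per 1000 APOE was 113 to 115 in Empty, 107 to 130 in Z2, 119 to 127 in Z5 and 105 to 134 in Z9.

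**Figure D4:**
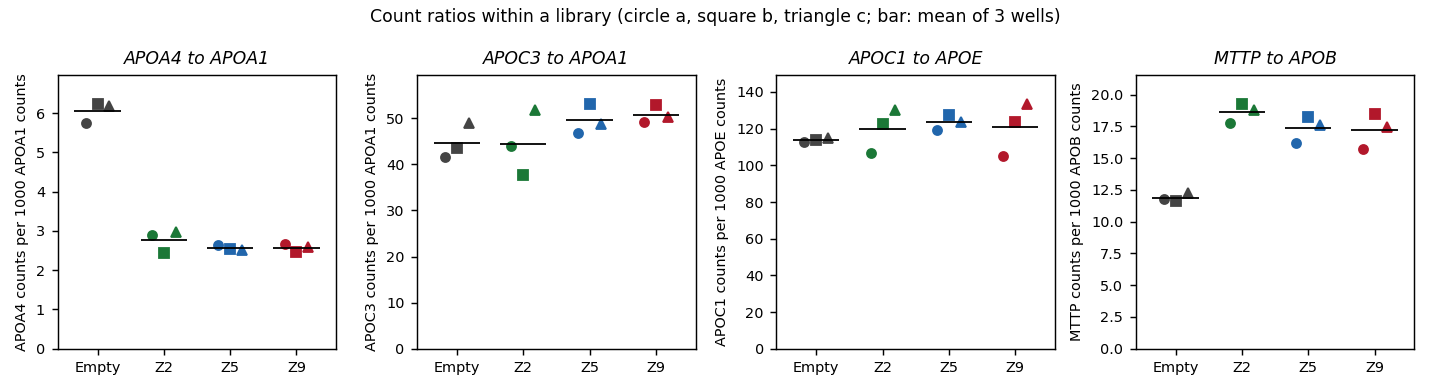
Counts of 1 gene per 1000 counts of another in each well (vertical axes, starting at 0); the bar is the mean of 3 wells of a line. MTTP to APOB is 11.6 to 12.3 in Empty and 15.7 to 19.3 elsewhere, whereas APOC3 to APOA1 and APOC1 to APOE overlap between lines.

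The labelled lines were also compared with each other. No member was called in Z9 minus Z2, Z9 minus Z5 or Z5 minus Z2 by edgeR, where 5.17%, 1.52% and 0.00654% of all tested genes were. At an unadjusted p under 0.05 the counts were 3, 4 and 1 of 10, where 23.9%, 14.5% and 10.3% of all tested genes were. The DESeq2 Wald test called 2, 1 and 0 of the 10, and 12.4%, 3.99% and 0.125% of the genes it gave an adjusted p. Those called by DESeq2 in Z9 minus Z2 were APOA2 (log2 difference -0.21, edgeR adjusted p = 0.0677) and MTTP (-0.22, 0.0632), and in Z9 minus Z5 APOM (-0.34, 0.107), with edgeR values given. All 10 differences of Z9 minus Z5 were below 0, with a median of -0.10 against -0.0022 for all tested genes. The median absolute difference was 0.102, against 0.0932 for all tested genes. The 10 genes were read in the same wells, so their signs are not independent. A call in 1 labelled line and not in another does not by itself show that the lines differed. For APOA2, MTTP and APOM the direct comparison depended on the method. Without Z2 a, APOA2 (-0.26, edgeR adjusted p = 0.0146) and MTTP (-0.28, 0.00818) were called in Z9 minus Z2, and without Z5 a, APOM was called in Z9 minus Z5 (-0.43, 0.0258). Without Z2 b, MTTP was at -0.12 in Z9 minus Z2 (edgeR adjusted p = 0.215), and 1 gene was called in Z9 minus Z5.

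The genes differed in how much wells of 1 line varied. The SD of log2 CPM within lines was 0.041 for APOA1, 0.067 for APOH, 0.079 for APOB, 0.081 for APOA2, 0.092 for MTTP and 0.096 for APOA4. It was 0.13 for APOE, 0.14 for APOM, 0.15 for APOC3 and 0.17 for APOC1, against a median of 0.11 over all tested genes. In Z2 b, APOE, APOC3, APOC1 and APOA4 lay 0.27, 0.25, 0.23 and 0.21 below their line's mean on the log2 scale, while MTTP and APOB lay 0.19 and 0.14 above theirs. Without Z2 b, 7 of the 10 genes were called in the mean of the lines, with APOC3 and APOE added to the 5.

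Related genes were counted in lists chosen by role, where 13% of all tested genes were called higher and 12.6% lower in the mean of the lines. Of 12 other tested apolipoprotein genes, 1 was higher and 2 lower in the mean of the lines (median 0.030, against 0.0029 for all genes). CLU, which encodes the extracellular chaperone clusterin (apolipoprotein J), was at 279 ± 9.41 CPM in Empty and rose, to 359 ± 25.5, 375 ± 16.9 and 381 ± 16.4 in Z2, Z5 and Z9 (log2 fold change 0.41, edgeR adjusted p = 1.13e-05). APOF, which encodes a lipid transfer inhibitor, fell (-0.19, edgeR adjusted p = 0.0448). Z9 had 11.6 CPM of it, and Empty, Z2 and Z5 had 17.2, 17.2 and 17.3. APOO, of the mitochondrial inner membrane, also fell (-0.25, 0.0347). The APOO call was lost without Empty a (0.254), Empty c (0.0738), Z5 c (0.0618) or Z9 c (0.0562). The APOF call was lost without Empty a, b or c (0.124, 0.14 and 0.0969), Z2 a (0.0523), Z5 a (0.0588) or Z9 a, b or c (0.0664, 0.0567 and 0.063). Without Empty a, Empty c or Z9 c, 1 gene of the list was called. APOC2, APOC4, APOD, LPA, SAA1 and APOBEC1 had too few counts to be tested.

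Of 22 tested genes of apoB particle assembly and export, 0 were higher and 3 lower (median -0.024). PRAP1, a lipid-binding protein gene, fell by 0.37 on the log2 scale (edgeR adjusted p = 0.000735). SEC13, of the COPII coat that forms vesicles at the endoplasmic reticulum, fell by 0.19 (0.00211), and SEC16A, of the sites where they form, by 0.12 (0.0325). The SEC16A call was lost without Empty b (0.101), Empty c (0.163), Z5 b (0.0572), Z5 c (0.0514) or Z9 b (0.0653). Without Z2 b, 6 genes of this list were called.

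Lipoprotein receptors and their regulators had 4 higher and 6 lower of 21 (median 0.0076). VLDLR, which encodes the VLDL receptor, was at 30.1 ± 3.17 CPM in Empty and rose, to 64.3 ± 6.29, 59.2 ± 3.32 and 50.7 ± 4.93 in Z2, Z5 and Z9 (log2 fold change 0.94, edgeR adjusted p = 2.48e-07). LRP1, of a large remnant receptor, rose (0.31, 0.000189), and SORT1 and MYLIP, which are named with their values known, completed the 4. The SORT1 call was lost without Empty a (0.0967), and that of MYLIP without any Empty or Z5 well, Z9 b or Z9 c (0.0513 to 0.206). The fatty acid and lipoprotein receptor CD36 (-0.97, 2.94e-05), the apoE receptor LRP8 (-0.38, 0.000123) and the proteoglycan SDC1 (-0.31, 0.000345) fell. Levels of CD36 were low, at 5.59 CPM in Empty and 2.72, 3.02 and 2.85 in Z2, Z5 and Z9.

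For HDL formation and remodelling, 1 of 11 tested genes was higher and 3 lower (median -0.074). PCOLCE2, which encodes a procollagen processing enhancer that binds apoA-I, rose, with 1.91 CPM in Empty and 4.77, 6.04 and 4.53 in Z2, Z5 and Z9 (log2 fold change 1.41, edgeR adjusted p = 3.12e-07). CETP, of cholesteryl ester transfer, fell (-0.61, 0.00104), as did the protease gene FURIN (-0.50, 0.00832). ABCA1, which exports cholesterol to apoA-I, fell (-0.14, 0.0401), but lost the call without Empty b or c (0.238 and 0.115), Z5 a or b (0.0619 and 0.0727) or Z9 a, b or c (0.0508, 0.0647 and 0.0603). Its level was 174 CPM in Empty and Z5, 167 in Z2 and 137 in Z9.

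Among 26 transcription factors and cofactors of apolipoprotein genes, 4 were higher and 7 lower (median 0.017). NR2F1 (COUP-TF1) rose (log2 fold change 0.37, edgeR adjusted p = 5.03e-06), as did the coactivator gene PPARGC1A (0.50, 0.000181), and RORA and NR5A2, which are named with their values known, were the others. The NR5A2 call was lost without Empty b or c, Z5 b or c, or Z9 b or c (0.0559 to 0.218). ZHX2, a relative of ZHX3 (-0.36, 3.94e-05), NR0B2, which encodes the repressor SHP (-0.45, 0.000191), and the thyroid hormone receptor gene THRB (-0.28, 0.00166) fell. In all 6 lists, then, the medians were between -0.074 and 0.030, and calls went both ways in all except the list of apoB assembly and export. Over all tested genes 13% were called higher and 12.6% lower, and no list was tested as a set.

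**Figure D5:**
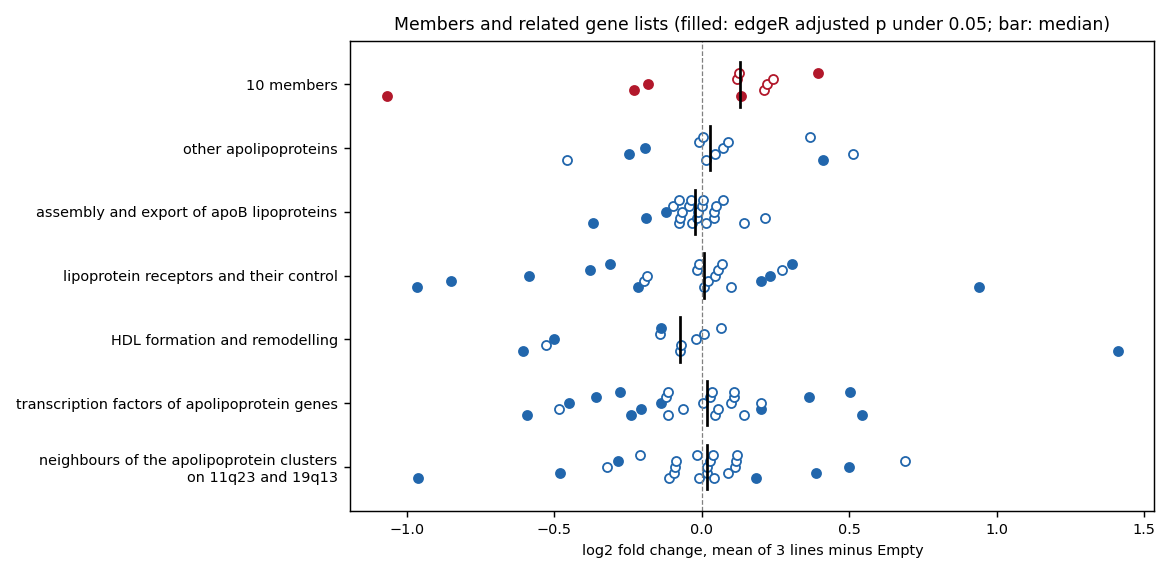
Log2 fold change of the mean of the 3 labelled lines against Empty (horizontal axis) for the 10 genes and for 6 lists of related genes, 1 point per tested gene; filled points passed the edgeR test and bars are medians. The median of the 10 genes is 0.13, and those of the lists lie between -0.074 and 0.030.

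For the 5 members called in the mean of the lines, the 3 tested genes with the highest Pearson correlation of log2 CPM over the 12 libraries were listed. Such a value reflects the step between Empty and the other lines as well as the spread within lines, and the libraries share their depth with both genes. For APOA4 these were LAMC3, a laminin chain gene (r = 0.986), WDR13 (0.98) and ABCC3, an export pump gene (0.969). For MTTP they were SCAMP1 (r = 0.982), CP, which encodes the plasma copper oxidase ceruloplasmin (0.981), and HSD17B11, of a lipid droplet enzyme (0.972). APOH was most like CRLS1, of cardiolipin synthesis (r = 0.957), JKAMP (0.956) and ZNF626 (0.954). APOB was most like CLCN5 (r = 0.956), SPTLC3, of sphingolipid synthesis (0.954), and CCDC43 (0.939). For APOA1 the values were lower, with HHAT at 0.915, ITGA7 at 0.914 and FAM102B at 0.911. CP was at 445 CPM in Empty and at a mean of 691 in the labelled wells, and LAMC3 at 15.1 and 1.95 CPM.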

How the data were processed

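The authors deposited raw read counts, as whole numbers by gene symbol. STAR, featureCounts and genome build hg38 are named in the submitters' processing notes, with versions, annotation and strand setting not given in the sources used here. Library totals were 50864744 to 65428204 counts. Chi-square per degree of freedom between wells of 1 line was 6.01 to 43, so no well was counted as a repeat.

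The counts were fitted with edgeR 4.0.16 (R 4.3.3): filterByExpr by line left 15289 genes, scaling was by TMM, and a robust quasi-likelihood model with 4 line means was fitted to all 12 libraries (8 residual degrees of freedom). Benjamini-Hochberg adjustment ran over all tested genes, and an adjusted p under 0.05 was a call. The SE was taken as the absolute log2 fold change over the root of the F statistic, and intervals are 95%. CPM used TMM-scaled sizes, and log2 CPM a prior count of 2. The script was tested on simulated data. Coordinates are from RefSeq (GRCh38.p14), and lengths and overlaps from GENCODE release 29, either of which may differ from the authors' annotation. Besides the overlaps given for APOA4 and APOC1, opposite-strand genes shared exon bases with APOA1 (123), APOB (169), APOM (136) and MTTP (19 and 83). APOE shared 19 with a gene of its own strand.

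Genes named were all 10 members, ZHX3, up to 5 called genes per list with the smallest adjusted p, and the 3 genes most like each called member. APOA5, APOC1P1, SORT1, MYLIP, RORA and NR5A2 are named outside that rule, with their values known, and cell type markers are named to check the label. The members, lists and tests were chosen with earlier results of these data known. Alternatives were DESeq2 1.42.0 size factors and Wald test, 2 other filters on low counts, fits of only the lines compared, the well letter as a block, wells summed per line, and leaving out single libraries.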

Additional observations from a re-analysis of the deposited data

How the results depend on the processing

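In the mean of the 3 labelled lines against Empty, the calls of APOA4 and MTTP held under all 18 alternatives, and that of APOH under all but wells summed per line (edgeR adjusted p = 0.129). The number of the 10 genes called, 5 as reported, was 9 with the replicate block, 2 with wells summed per line and 3 to 7 with single libraries left out. In Z2 it was 4 as reported, 2 when only the lines compared were fitted, 6 by the DESeq2 Wald test and 2 to 5 with libraries left out. In Z5 it was 6 as reported, 8 with only the lines compared, 7 by the Wald test and 2 to 7 with libraries left out, and in Z9 4, 6, 5 and 3 to 6. For Z9 minus Z2 it was 0, but 2 by the DESeq2 Wald test, 2 with the replicate block and 0 to 2 with libraries left out. For Z9 minus Z5 it was 0, but 1 by the Wald test, 1 with the replicate block, 2 with only the lines compared and 0 to 1 with libraries left out. It was 0 throughout for Z5 minus Z2. In DESeq2 Wald and block fits APOC3 and APOM passed in the mean of the lines, and with the block APOA2 and APOC1 did too. APOC3 and APOM also passed with a filter of at least 1 CPM in 3 libraries (edgeR adjusted p = 0.0428 and 0.0472). With DESeq2 size factors APOC3 passed (edgeR adjusted p = 0.0496). Over the 18 alternatives, with single libraries left out among them, APOC3 passed in 9 and APOM in 6.

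The labels state no pairing of wells by letter, so the reported fit had no block for it. Of 18 pairs of wells with the same letter, 5 had a correlation of deviations over 0.1 (range -0.101 to 0.173). Pairs of wells with different letters ranged from -0.153 to 0.15. Pairs of a wells were all positive, from 0.0388 to 0.173, and APOA2 and APOC1 lay below their line's mean in well a of every line. With the letter as a block 9 of the 10 genes were called. Whether wells of the same letter share a condition was not tested. The share of counts in Z5 was 1.589% on TMM-scaled sizes.

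Values that changed sign were uncalled as reported and with the sign changed. APOA2 in Z9, 0.0019 as reported, was -0.0003713 with DESeq2 size factors, -0.0003735 by the Wald test, -0.001062 without the filter and -0.031 to 0.049 with libraries left out. With libraries left out, APOM in Z9 was -0.033 to 0.11, and in Z2 APOE was -0.040 to 0.15, APOC1 -0.034 to 0.21 and APOC3 -0.017 to 0.22.

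With wells summed per line, where Empty is 1 sum without a spread of its own, the called genes fell from 3 to 1 among other apolipoproteins, from 3 to 0 in apoB assembly, from 10 to 3 among receptors, from 11 to 4 among transcription factors and from 6 to 3 among neighbours. APOA4 and several named genes of the lists were under 10 CPM, where counting error is larger. A gene-level count says nothing of protein or secretion.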
